A study of Homo sapiens with 6 samples.

Results

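Expression of the EGFR family was examined in COV434 cells without and with BRG1 reexpression. The genes were 10 of the 19899 in the gene table, matched by symbol. They were the receptor genes EGFR, ERBB2 and ERBB3, 6 genes for ligands of EGFR (AREG, EREG, HBEGF, TGFA, BTC and EPGN) and NRG1, whose protein binds ERBB3 and ERBB4. COV434, an established line of ovarian origin, was used in the study as a model of SCCOHT, the hypercalcemic form of small cell ovarian carcinoma. These cells lack BRG1, which is encoded by SMARCA4 and drives SWI/SNF chromatin remodeling by ATP hydrolysis. Both groups received a puromycin resistance plasmid (pBABE-puro), together with the plasmid pCDNA3-neo in Control (n = 3) or PBJ5-BRG1 in BRG1 samples (n = 3). Puromycin at 2 to 3 µg/ml was added 24 hours after transfection for 3 days, so that each sample averages all the cells that survived selection and is not a clone. In such bulk RNA, fewer cells expressing a gene and less of its RNA per cell cannot be told apart.

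The EGFR family is a set of membrane tyrosine kinases that pair after ligand binding and signal through RAS and MAP kinases and through PI3 kinase. ERBB2 binds no known ligand and acts as a partner, while ERBB3 has a weak kinase and depends on its partner. The EGFR ligands are made as membrane proteins that are cut at the cell surface to release the active factor, and in the ovary AREG, EREG and BTC carry the luteinizing hormone signal from granulosa cells to the oocyte and its surroundings.

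The 6 libraries held between 29699741 and 63613710 estimated counts, with BRG1 sample 3 the shallowest. SMARCA4, the transfected gene, had 1439, 1675 and 1537 normalised counts in Control samples 1 to 3 and 108655, 79075 and 78589 with BRG1, with transcripts of the plasmid included (Log2FoldChange 5.84, DESeq2 padj 5.4e-216). A normalised count is the estimated count of a gene divided by the size factor of its library. All 10 interferon response genes listed were called higher with BRG1, led by IFI6, OAS1, IFIT1 and ISG15, and their summed normalised counts lay between 12128 and 13613 in Control and between 176965 and 199981 in BRG1 samples. Of 10 keratinocyte genes, 7 were called higher, led by KRT6A, SFN, KRT5 and KRT14. The sum of the 10 lay between 690 and 908 in Control and between 57073 and 147661 in BRG1 samples, lowest in BRG1 sample 3. The others, TP63, DSG3 and DSC3, had a Log2FoldChange below 0, down to -0.62. None of them was called lower, and 1 had an unadjusted p under 0.05 in DESeq2. Of the called genes, KRT14, KRT16 and PKP1 held at most 3 counts in every Control sample. PKP1 was not called by edgeR or limma-voom. The granulosa markers FOXL2 and FSHR held at most 3 counts in every sample, and of 8 granulosa markers INHBA and CYP19A1 were called higher. INHBA was not called by limma-voom. KRT8 and CLDN4 and, with a mean below 100, KRT18 were called higher among 8 simple epithelium markers, and EPCAM and KRT19 held at most 3 counts in every sample. CLDN4 was not called by edgeR or limma-voom run with no covariate, nor by DESeq2 without Control sample 2 or BRG1 sample 1. None of 5 leukocyte markers was called by DESeq2, and 1 of them had an unadjusted p under 0.05, while CD3E held at most 3 counts in every sample. Among 6 fibroblast and endothelial markers CDH5 was called, against Control samples with at most 3 counts. The part of these accompanying genes in the results below was not tested.

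The receptor gene EGFR and the ligand genes HBEGF and TGFA rose with BRG1, and the other 7 genes of the family did not pass the test in either direction. Calls used an adjusted p (padj) under 0.05, from DESeq2 with Benjamini-Hochberg adjustment over all genes. By this rule 3 of the 10 genes were called higher, against 11.0% of the 15991 genes tested, and 0 were called lower, against 1.84%. In this DESeq2 test no member had an unadjusted p under 0.05 in the lower direction, and edgeR, limma-voom and the other alternatives also called 0 lower. The edgeR test called 9.23% of all genes higher and 0.984% lower, and it also called EGFR, HBEGF and TGFA and no other member. Blocking on the replicate number, DESeq2 called 13.4% of all genes higher and 6.62% lower, and edgeR 13.3% and 5.5%, and in both the same 3 members were called. The median Log2FoldChange of the 10 genes was 0.08, and that of all genes was -0.001.

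**Figure D1:**
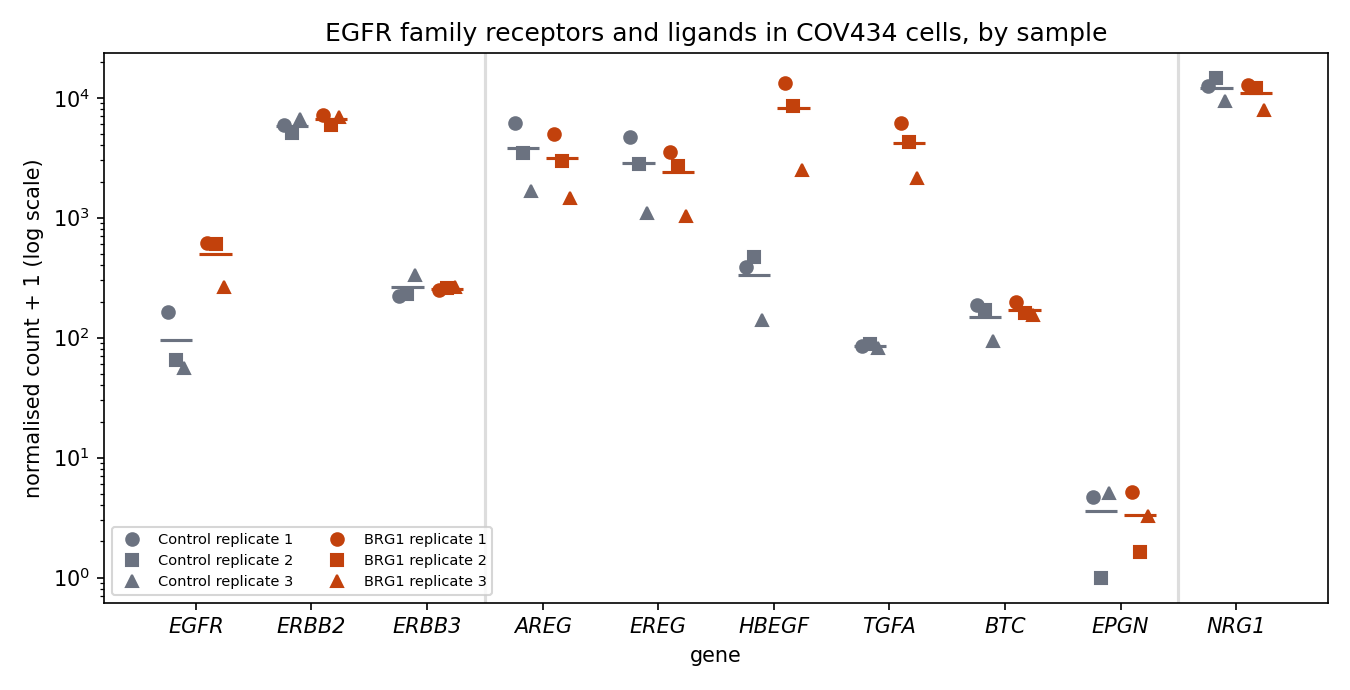
Normalised counts plus 1 (y axis, log scale) of the 10 EGFR family genes (x axis) in each library, with the 3 Control samples in grey and the 3 BRG1 samples in red, a marker shape for each replicate number and the group means as lines. For EGFR, HBEGF and TGFA every BRG1 sample lies above every Control sample, while for the other 7 genes the groups overlap.

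EGFR, the receptor for 6 of the ligands here, spans 55019017 to 55211628 of chromosome 7, plus strand (GRCh38, GENCODE release 44). Its normalised counts were 164, 64.4 and 55.1 in Control samples 1 to 3 and 611, 605 and 262 in BRG1 samples 1 to 3. Every BRG1 sample lay above every Control sample, with Control sample 1 the highest of its group and BRG1 sample 3 the lowest of its own. The mean rose from 94.4 ± 60.3 to 493 ± 199.8 (SD, n = 3), a Log2FoldChange of 2.39 with a standard error of 0.48 (DESeq2 padj 1.1e-05, edgeR padj 0.0217). This is a fold of 5.23, with a 95% interval of 2.73 to 10.02. Without Control sample 1 the Log2FoldChange was 3.04, and over all fits that left out a sample padj lay between 1.0e-10 and 0.0026. The antisense gene EGFR-AS1 covers 1.17% of the exonic bases of EGFR, and its reads cannot be separated in libraries that do not keep strand.

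ERBB2, the partner receptor without a ligand of its own (chromosome 17, 39687914 to 39730426), had the highest counts of the receptors. It had 5873, 5065 and 6642 normalised counts in Control and 7185, 5926 and 6959 with BRG1. The groups overlapped, and the Log2FoldChange of 0.19 (standard error 0.17, 95% interval -0.14 to 0.52, DESeq2 padj 0.629) was not called. Exons of MIEN1 and PGAP3 on the other strand cover 6.93% of its exonic bases. ERBB3 (chromosome 12, 56076799 to 56103505) had 219, 229 and 334 normalised counts in Control and 248, 257 and 262 with BRG1. Here too the groups overlapped, with a Log2FoldChange of -0.04 (95% interval -0.51 to 0.44, DESeq2 padj 0.967). For both genes the interval leaves out the fold seen for EGFR.

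TGFA encodes transforming growth factor alpha, an EGFR ligand of many epithelia, and lies on the minus strand of chromosome 2 from 70447284 to 70554193. It had 84.4, 87.9 and 81.0 normalised counts in Control samples 1 to 3 and 6187, 4289 and 2146 with BRG1. The Control samples were close to each other, and the lowest BRG1 sample was again sample 3. The mean rose from 84.4 ± 3.44 to 4207 ± 2022 (SD, n = 3), with a Log2FoldChange of 5.64 and a standard error of 0.36 (DESeq2 padj 6.9e-54, edgeR padj 0.000146). The fold was 49.9, with a 95% interval of 30.8 to 81.1.

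HBEGF encodes heparin-binding EGF-like growth factor, which binds EGFR and ERBB4, and lies on the minus strand of chromosome 5 from 140332843 to 140346603. Its normalised counts were 384, 467 and 139.7 in Control samples 1 to 3 and 13339.7, 8587 and 2480.5 in BRG1 samples 1 to 3. Sample 3 was the lowest in each group, and the lowest BRG1 sample still lay above the highest Control sample. The mean rose from 330.4 ± 170.3 to 8136 ± 5444 (SD, n = 3), with a Log2FoldChange of 4.62 and a standard error of 0.79 (DESeq2 padj 1.2e-07, edgeR padj 0.00416). The fold was 24.6, with a 95% interval of 8.39 to 72.4.

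**Figure D2:**
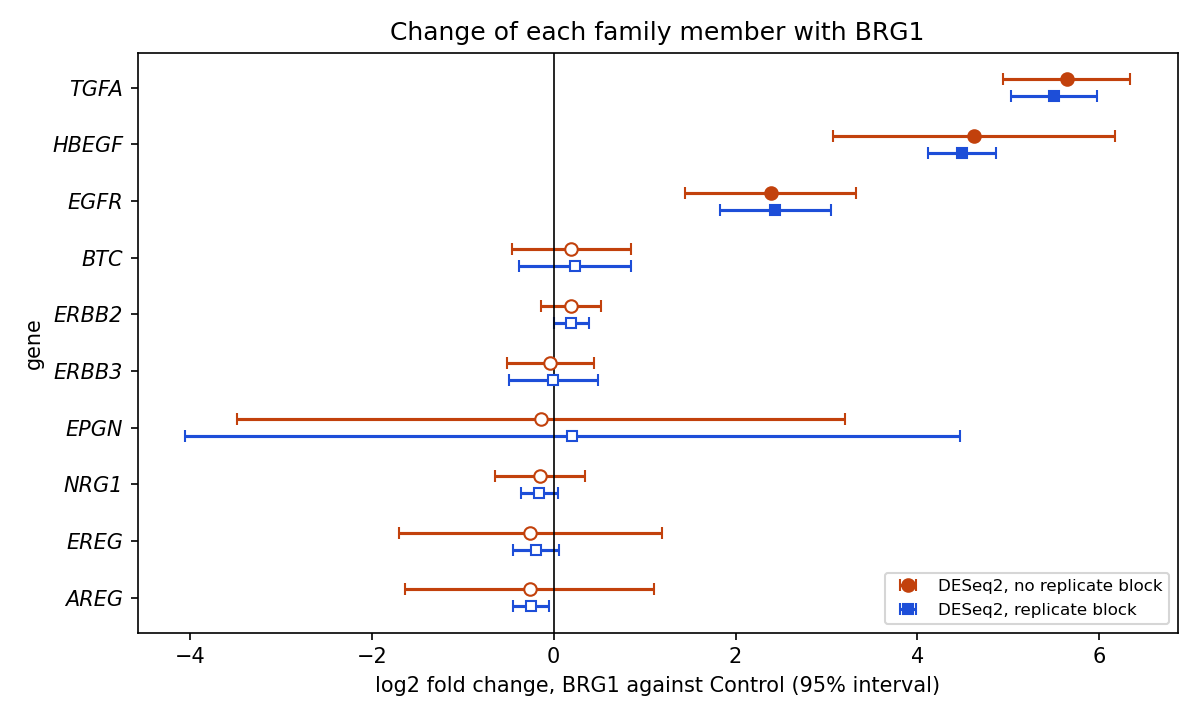
Log2FoldChange of BRG1 against Control (x axis) for each of the 10 genes (y axis), with DESeq2 estimates and 95% intervals without (circles) and with (squares) the replicate block and filled symbols for called genes. The intervals of EGFR, HBEGF and TGFA lie above 0 in both fits, those of the other 7 genes include 0 without the block, and with it only that of AREG, at -0.44 to -0.05, leaves 0 out among them.

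AREG encodes amphiregulin and lies on chromosome 4 from 74445136 to 74455005. It had 6168, 3471 and 1682 normalised counts in Control samples 1 to 3 and 5012, 2965 and 1457 with BRG1. The spread within a group, a ratio of highest to lowest of 3.67 in Control and 3.44 in BRG1 samples, was far wider than the difference between groups (Log2FoldChange -0.26, 95% interval -1.63 to 1.11, DESeq2 padj 0.918). EREG, which encodes epiregulin (chromosome 4, 74365145 to 74388749), had 4720.0, 2794 and 1092 normalised counts in Control and 3495, 2681 and 1025 with BRG1. Like AREG it was highest in sample 1 and lowest in sample 3 of each group, and it was not called (Log2FoldChange -0.26, DESeq2 padj 0.927).

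Samples with the same number deviated together over the 11685 genes with a mean of at least 100 normalised counts, and the fold within numbers removes that spread. For AREG the fold was 0.813, 0.854 and 0.866 for numbers 1 to 3, lower in 3 of 3 pairs, and in the DESeq2 fit that blocked on the number the Log2FoldChange was -0.25 with a 95% interval of -0.44 to -0.05 (DESeq2 padj 0.0666, edgeR padj 0.0691). This missed the threshold. For EREG the folds were 0.740, 0.959 and 0.939, and the blocked padj from DESeq2 was 0.324. The corresponding folds were 3.73, 9.40 and 4.75 for EGFR, 34.7, 18.4 and 17.8 for HBEGF and 73.3, 48.8 and 26.5 for TGFA. TGFA thus had the larger fold of these ligands within each number, and for both ligands number 1 gave the highest and number 3 the lowest.

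**Figure D3:**
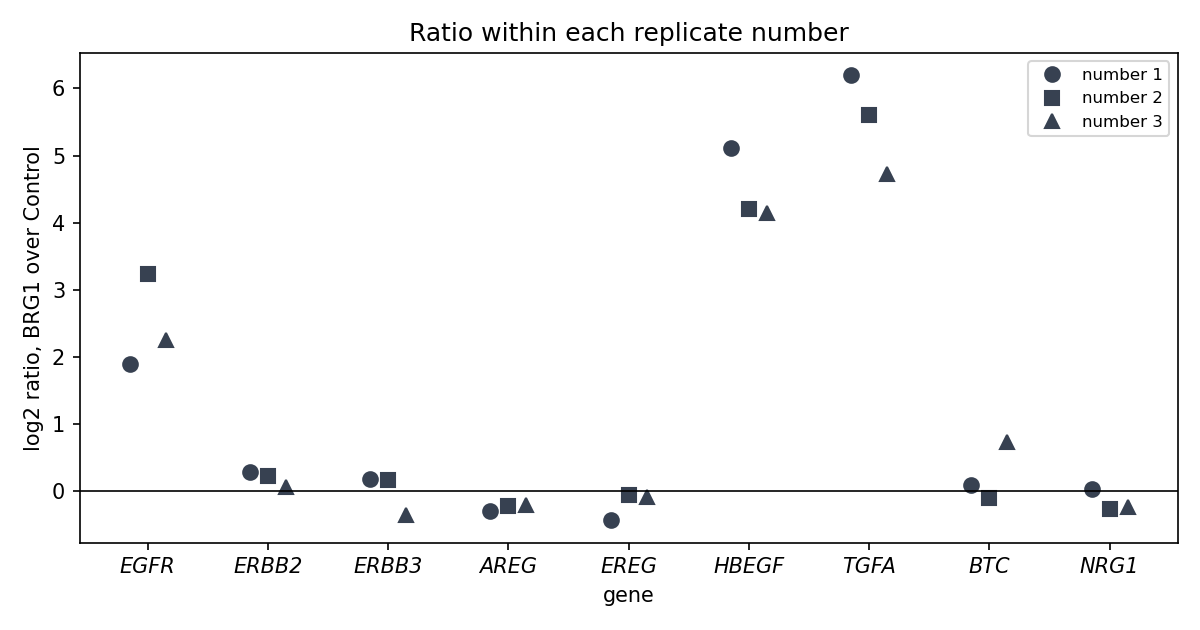
Log2 ratio of BRG1 over Control (y axis) between samples of the same number for 9 members (x axis; EPGN, with a count of 0, is left out), with a marker shape for each of the 3 numbers. EGFR, HBEGF and TGFA lie far above 0, at folds of 3.73 to 73.3, and AREG lies below 0 for all 3 numbers, at folds of 0.813 to 0.866.

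The remaining ligand genes did not pass the test. BTC, which encodes betacellulin (chromosome 4, 74744759 to 74794523), had 185, 170.1 and 92.2 normalised counts in Control and 197, 159 and 153 with BRG1 (Log2FoldChange 0.20, 95% interval -0.45 to 0.84, DESeq2 padj 0.855). EPGN, which encodes epigen (chromosome 4, 74308470 to 74316789), had between 0 and 4.14 normalised counts. At this depth its Log2FoldChange was poorly estimated (-0.14, 95% interval -3.49 to 3.20), so a fall or a modest rise was not detectable. NRG1 encodes neuregulin 1 (chromosome 8, 31639222 to 32855666) and had the highest counts of the ligand genes, with 12548, 14602 and 9338 normalised counts in Control and 12866, 12107 and 7910.0 with BRG1. The groups overlapped for all 3 genes, and for NRG1 the Log2FoldChange was -0.15 (95% interval -0.64 to 0.34, DESeq2 padj 0.854).

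Levels of different genes were compared per length, as normalised counts per kilobase of 1 reference transcript per gene. In Control samples AREG was highest at 3058 per kilobase, followed by ERBB2 (1286), NRG1 (1015), EREG (622), HBEGF (140.1), BTC (56.1), ERBB3 (46.5), TGFA (20.5), EGFR (9.54) and EPGN (0.968). Of neighbours in that order, the samples of EREG and HBEGF, ERBB3 and TGFA, TGFA and EGFR, and EGFR and EPGN did not overlap, while the other neighbours overlapped. In BRG1 samples the order was HBEGF (3450.3), AREG (2548), ERBB2 (1468), TGFA (1022), NRG1 (915), EREG (520.1), BTC (63.9), EGFR (49.7), ERBB3 (45.5) and EPGN (0.870). There only EREG and BTC, and ERBB3 and EPGN, were apart among neighbours. EGFR thus moved from below ERBB3 in every Control sample to a level that overlapped that of ERBB3.

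The make-up of the EGFR ligand transcripts differed between the groups. Of the summed per-length level of the 6 ligand genes, AREG held 78.4% ± 2.07 in Control and 34.6% ± 3.98 with BRG1 (SD, n = 3), and EREG held 15.5% ± 1.46 and 7.04% ± 0.663. HBEGF went from 3.80% ± 1.41 to 42.9% ± 7.14 and TGFA from 0.684% ± 0.421 to 14.4% ± 2.48, with 0.452% in Control when Control sample 3 was left out. BTC held 1.62% and 1.10%, and EPGN 0.0371% and 0.0144%. The sum itself was larger with BRG1, by a fold of 1.92, 2.09 and 1.77 within numbers 1 to 3. For the summed level of EGFR, ERBB2 and ERBB3 these folds were 1.25, 1.21 and 1.05. ERBB2 held 95.8% of that sum in Control and 93.8% with BRG1, ERBB3 3.45% and 2.93%, and EGFR 0.719% ± 0.454 and 3.22% ± 1.40 (SD, n = 3). Without Control sample 1 the EGFR share in Control was 0.463%. This sum leaves out ERBB4, which stood at 305 ± 13.0 per kilobase in Control and 239 ± 19.6 with BRG1 (SD, n = 3). With ERBB4 included, its share was 18.7% in Control and 13.4% with BRG1, that of EGFR 0.583% and 2.79%, that of ERBB3 2.81% and 2.54%, and that of ERBB2 78.0% and 81.3%, so that the difference in the ERBB2 share had the opposite sign.

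**Figure D4:**
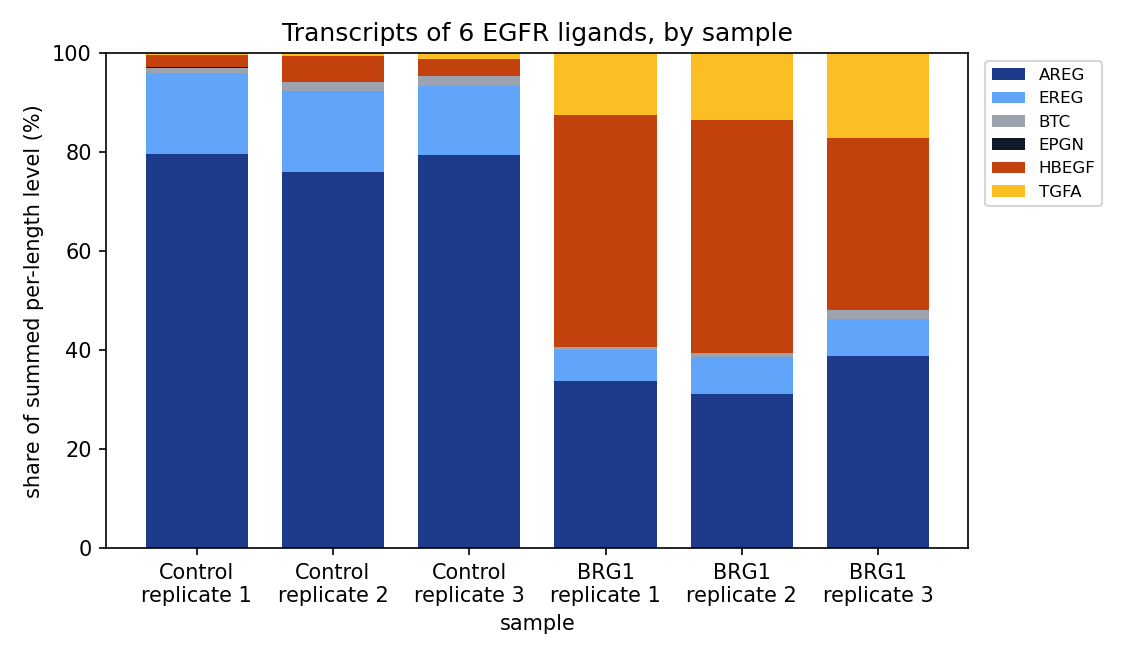
Share of each of the 6 EGFR ligand genes (colours) in their summed per-length level (y axis, percent) in each of the 6 samples (x axis). AREG takes 78.4% on average in Control and 34.6% in BRG1 samples, while HBEGF goes from 3.80% to 42.9%.

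Ratios between members within a library do not depend on its scaling. The log2 ratio of HBEGF to AREG counts was -3.50 ± 0.56 in Control and 1.24 ± 0.41 with BRG1, that of TGFA to AREG was -5.29 ± 0.91 and 0.47 ± 0.14, and that of EGFR to ERBB2 was -6.12 ± 0.89 and -3.86 ± 0.77 (SD, n = 3). Each was higher in 3 of 3 pairs. These ratios set called genes over genes that were not called and were chosen after the values were seen, so they are a description with no test. The log2 ratio of EREG to AREG was -0.44 ± 0.16 and -0.39 ± 0.21, a difference of 0.05. AREG and EREG, which are neighbours on chromosome 4, kept within their spread of each other while each varied more than 3-fold among samples of a group.

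The genes for 4 of the ligands, EPGN, EREG, AREG and BTC, lie within 486 kilobases of chromosome 4, from 74308470 to 74794523. None of them was called. Among the 10 other protein-coding genes of the table that start within 500 kilobases of this cluster, 0 were called higher and MTHFD2L, a mitochondrial folate enzyme, was called lower. It had 823 ± 165 normalised counts in Control and 553 ± 50.4 with BRG1 (SD, n = 3, DESeq2 padj 0.0477), and this call was lost with edgeR (padj 0.127) and without any 1 sample other than Control sample 3 (padj 0.0899 to 0.283). PARM1 had 2454, 1500.3 and 968 normalised counts in Control and 1350.2, 844 and 756 with BRG1, lower in 3 of 3 pairs. It was not called by DESeq2 or edgeR (padj 0.215 and 0.301) and was called lower when the number was a block (padj 0.000127 and 0.0103), as was MTHFD2L (padj 0.00884 and 0.0303). HBEGF, TGFA and EGFR each lie on another chromosome.

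Promoter windows were read from RefSeq (GRCh38.p14, 250 bases before to 50 after a start site), which held 10 windows for 8 of the 10 genes and no entry for ERBB3 and NRG1. They were searched for TGANTCA and for TGACGTCA, the cyclic AMP response element, because the study examined AP-1 motifs. TGANTCA takes any base at N, so it covers the AP-1 element (TGACTCA or TGAGTCA) and also sequences that are not that element. Each motif reads the same on both strands apart from its N, and neither can lie inside the other. TGANTCA was in 2 of the 10 windows, against 7.71% of 35116 windows, and TGACGTCA in 1, against 1.85%. The AREG window held TGACGTCA at position -65 from the start. The second start site of EGFR, 90.8 kilobases inside the gene, had TGAGTCA at position -232 and TGACTCA at -136. The ERBB2 match at -222 was TGATTCA, which is not the AP-1 element. The windows of HBEGF, TGFA and the first start site of EGFR held neither motif. A match describes letters only, and no binding was measured here.

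The stretches before the start sites of the 3 called genes and of AREG are shown because these genes differ in response, with the motifs in capitals and exonic bases left out. The stretch therefore ends at position -148 for TGFA (start site 70553826) and at -117 for the second start of EGFR. Another TGFA start site, at 70553446, is not shown. AREG is chr4:74444886-74445135 (plus strand), EGFR second start chr7:55109589-55109722 (plus), EGFR first start chr7:55018767-55019016 (plus), HBEGF chr5:140346604-140346853 (minus) and TGFA chr2:70553974-70554076 (minus), all written 5′ to 3′.
AREG: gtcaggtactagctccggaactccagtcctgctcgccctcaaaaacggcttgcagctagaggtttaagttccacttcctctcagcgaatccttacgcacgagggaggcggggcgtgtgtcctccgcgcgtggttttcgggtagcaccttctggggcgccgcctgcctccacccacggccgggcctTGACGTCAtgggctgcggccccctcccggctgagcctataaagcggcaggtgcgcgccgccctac
EGFR second start: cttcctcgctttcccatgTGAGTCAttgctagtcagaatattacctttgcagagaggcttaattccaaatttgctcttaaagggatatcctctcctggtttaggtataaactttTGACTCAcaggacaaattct
EGFR first start: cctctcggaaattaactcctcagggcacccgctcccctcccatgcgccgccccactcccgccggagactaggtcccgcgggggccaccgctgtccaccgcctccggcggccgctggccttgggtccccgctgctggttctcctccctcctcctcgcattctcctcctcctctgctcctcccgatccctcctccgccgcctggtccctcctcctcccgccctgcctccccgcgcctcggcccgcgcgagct
HBEGF: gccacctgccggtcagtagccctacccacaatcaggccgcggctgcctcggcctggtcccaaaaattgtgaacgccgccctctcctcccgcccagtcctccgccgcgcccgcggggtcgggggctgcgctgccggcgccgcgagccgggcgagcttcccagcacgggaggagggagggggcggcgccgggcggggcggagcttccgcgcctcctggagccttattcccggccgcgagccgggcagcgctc
TGFA: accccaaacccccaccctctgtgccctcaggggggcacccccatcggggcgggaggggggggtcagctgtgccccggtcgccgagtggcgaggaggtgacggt

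Among the 5 other genes of the family, EGF, the ligand after which the receptor is named, was called higher. It had 13.4, 11.4 and 12.4 normalised counts in Control samples and 256, 284 and 24.7 with BRG1. BRG1 sample 3 stood near the Control samples, and the Log2FoldChange was 3.93 with a standard error of 0.73 (DESeq2 padj 1.7e-06, edgeR padj 0.0199), a call that limma-voom did not make (padj 0.110). ERBB4, the receptor of the family that binds both neuregulins and HBEGF, had 3846, 3532 and 3699 normalised counts in Control and 2620.3, 3030.5 and 3029.7 with BRG1. Every BRG1 sample lay below every Control sample, yet its Log2FoldChange of -0.35 missed the threshold (DESeq2 padj 0.0571, edgeR padj 0.0974), and it passed when the number was a block (DESeq2 padj 0.0164, edgeR padj 0.0427). NRG2, NRG3 and NRG4 had DESeq2 padj of 0.946, 0.920 and 0.916. In this list 1 of 5 was called higher, against 11.0% of all genes tested, and 0 lower, against 1.84%. The median Log2FoldChange of the list was -0.18.

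Ligand release depends on cutting at the cell surface, and 9 genes of sheddases, their regulators and an inhibitor were read. Of these, 2 were called higher, against 11.0% of all genes tested, and 0 lower, against 1.84%. Their median Log2FoldChange was 0.17. TIMP3, which inhibits ADAM17 and other metalloproteinases and does not itself cut ligands, had 419.6, 275 and 187 normalised counts in Control and 41828, 22198 and 10848 with BRG1. The groups were far apart, with a Log2FoldChange of 6.41 and a standard error of 0.45 (DESeq2 padj 1.1e-43, edgeR padj 0.000417). Without BRG1 sample 1 its Log2FoldChange was 5.82. ADAM12, a sheddase named here after its values were seen because its mean was below 100, was at 3 counts or fewer in every Control sample and had 51.5, 37.3 and 36.0 normalised counts in BRG1 samples, at least 13.2-fold higher (DESeq2 padj 3.5e-06). ADAM17, the main sheddase of TGFA, AREG and HBEGF, was not called (DESeq2 padj 0.965), and neither was ADAM10 (padj 0.406), which cuts EGF and BTC.

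Of 21 receptor inhibitors and feedback genes, 2 were called higher, against 11.0% of all genes tested, and 0 lower, against 1.84%. Their median Log2FoldChange was 0.02, or 0.07 without CBLC, which held at most 3 counts in every sample. SPRY1, a Sprouty inhibitor of receptor tyrosine kinase signalling, had 121, 111 and 113 normalised counts in Control and 692, 451 and 370.5 with BRG1 (Log2FoldChange 2.13, DESeq2 padj 5.1e-12, edgeR padj 0.00191). PTPRJ, a receptor phosphatase that acts on EGFR, rose with a Log2FoldChange of 1.14 (DESeq2 padj 0.00286), a call lost with edgeR (padj 0.0503). Blocking on the replicate number, DESeq2 called 5 higher, adding ERRFI1, RNF41 and SPRY4, and CBL and SOCS4 lower.

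Of 29 genes that carry the signal from the receptors, such as the RAS, RAF and PI3 kinase genes, SHC2 alone was called higher and 0 were called lower. Among all genes tested, 11.0% were called higher and 1.84% lower. The median Log2FoldChange of the list was -0.03, or -0.05 with SHC3, whose Control samples held at most 3 counts, at its bound. In the DESeq2 test without the block, no gene of this list had an unadjusted p under 0.05 in the lower direction. There was 1 such gene with edgeR and 1 with limma-voom, and with the block 1 in DESeq2 and 4 in edgeR. SHC2, an adaptor of receptor tyrosine kinases, had a Log2FoldChange of 0.52 (DESeq2 padj 0.0304), and the call was lost with edgeR (padj 0.0813) and without Control sample 1 or 2 or BRG1 sample 1 or 2 (padj 0.140 to 0.192). With the block DESeq2 also called MAP2K1, and both were called with edgeR and the block.

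A list of 10 genes served as transcriptional output of MAP kinase signalling. In it DESeq2 called 3 higher, against 11.0% of all genes tested, and 0 lower, against 1.84%. The edgeR test called 1 of the 10 higher, against 9.23%. The median Log2FoldChange of the list was 0.61. CCND1, which encodes cyclin D1, had 1642, 906 and 569.5 normalised counts in Control and 11479.6, 7078 and 2680.5 with BRG1 (Log2FoldChange 2.77, DESeq2 padj 5.0e-07, edgeR padj 0.0177). The ephrin receptor genes EPHA2 (Log2FoldChange 1.20, DESeq2 padj 0.0206) and EPHA4 (1.07, padj 0.0293) were called by DESeq2 and not by edgeR (padj 0.132 and 0.121). The call of EPHA2 was lost without Control sample 2 or 3 or BRG1 sample 1 or 2 (padj 0.0555 to 0.200), and that of EPHA4 without Control sample 1 or 2 or BRG1 sample 1 or 2 (padj 0.192 to 0.242). With the block DESeq2 called 6, adding SPRY4, DUSP4 and PHLDA1. SPRY4 is also in the list of inhibitors and feedback genes, so its call counts in both lists. CCND1, like HBEGF, was lowest in sample 3 of each group.

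**Figure D5:**
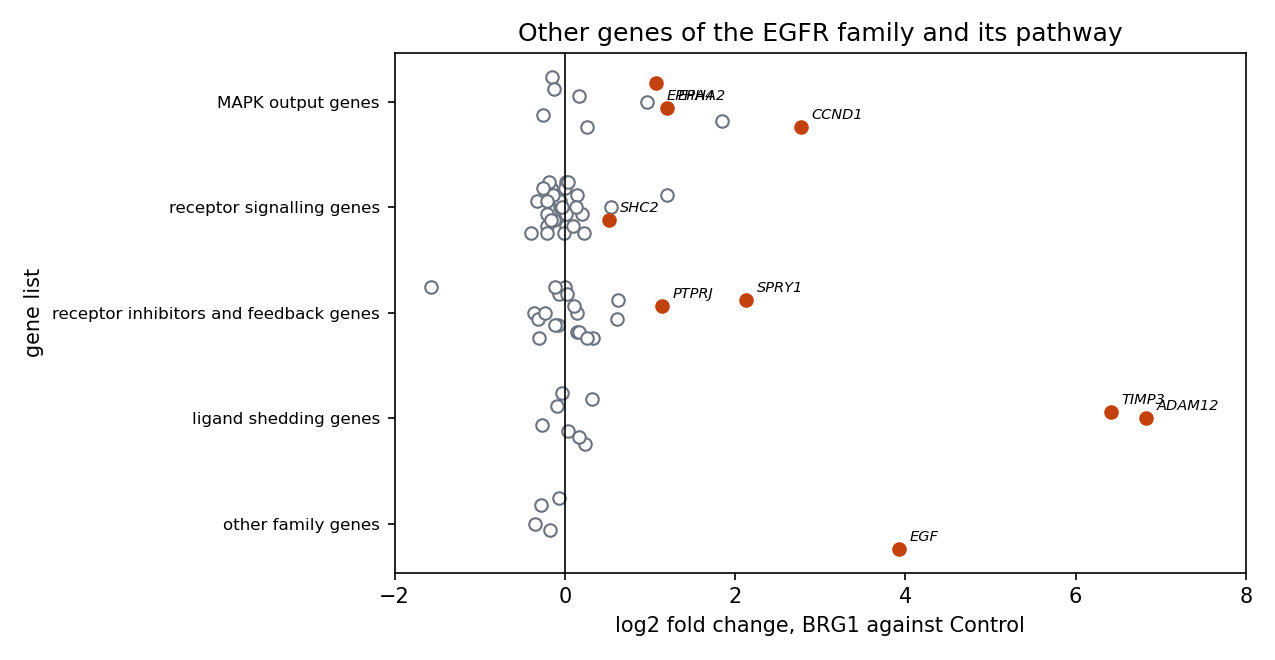
Log2FoldChange of BRG1 against Control (x axis) for the genes of each pathway list (y axis), with filled points for genes called by DESeq2 and open points for the others. Most genes of the signalling and inhibitor lists lie near 0, and the fitted value of ADAM12 depends on Control samples with at most 3 counts.

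The genes whose levels followed those of the most abundant receptor and ligand genes most closely were then listed, over 6 samples and 11684 genes with a mean of at least 100. For ERBB2 they were SSH1 (Pearson r = 0.996 of log2 normalised counts), DEAF1 (0.995) and RAB6B (0.992), and for NRG1 they were TBX2 (0.995), ZNF333 (0.994) and DTNBP1 (0.994). With 6 samples and so many genes, values this high are a description of these libraries only.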

How the data were processed

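RNA-seq was analysed in 3 Control and 3 BRG1 samples of COV434. Per the labels and the study's methods, the authors made unstranded libraries from 500 ng of RNA, sequenced as pairs of 78 bases, used FastQC (0.11.5) and STAR (2.5.3a) with hg38, quantified transcripts with Salmon (0.8.2) on GENCODE release 24 and collapsed these to gene level by tximport. What they deposited are estimated counts (length-scaled TPM), rounded here to whole numbers. DESeq2 (1.42.0; the authors used 1.22.2) was run with no covariate, and edgeR (4.0.16) and limma (3.58.1) with TMM factors, under R 4.3.3. When tested on simulated data, the share of false calls was above the nominal level for DESeq2 and about at it for edgeR, so edgeR values stand beside the calls. The simulated counts used the dispersions fitted by DESeq2 and had no deviation shared by same-numbered samples. Their error shares may therefore not hold for the real data. Coordinates come from GENCODE release 44, which matched 18185 of 19899 genes, and 18096 genes held a count. A gene with at most 3 counts in every sample of a group was treated as at the floor, and this covers counting error only. Per-length levels used 1 release 44 transcript per gene, not the lengths the authors used.

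Named genes were all members and SMARCA4. From each list at most 4 called genes in each direction were named, by smallest DESeq2 padj, with a mean of at least 100. Called genes within 500 kilobases of the ligand cluster were also named, PARM1 after its values were seen, as were the 3 genes most like the most abundant receptor and ligand. The members and the lists were chosen with earlier results of these data known. The ratios between members and the ligand shares were chosen after their values were seen. The design text calls the samples biological replicates. Same-numbered samples deviated together over 11685 genes (r = 0.523, 0.524 and 0.614 for numbers 1 to 3), so the numbers were taken to pair the samples, although the labels do not say what a number marks. Alternatives were edgeR, limma-voom, TMM factors in DESeq2, a filter of at least 10 counts in at least 3 samples, no independent filtering, padj under 0.01, the replicate block and leaving out each sample.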

Additional observations from a re-analysis of the deposited data

How the results depend on the processing

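EGFR, HBEGF and TGFA were called higher under the DESeq2 test and all 14 alternatives, and the other members under none in which they could be tested; EPGN could not be tested by edgeR, limma-voom or with the low-count filter, and had no adjusted p in the blocked DESeq2 fit or without Control sample 3. The replicate block raised the count of all genes called lower from 294 to 1035 with DESeq2 and to 783 with edgeR, against 140 with edgeR and 157 with limma-voom without it and 130 at padj under 0.01. Leaving out a sample gave 117 (without BRG1 sample 2) to 596 (without BRG1 sample 3). Among the other family genes, limma-voom called 0 higher in place of 1, and the low-count filter and both blocked fits called 1 lower, ERBB4, in place of 0. For inhibitors and feedback genes edgeR and limma-voom called 1 higher in place of 2 and blocked DESeq2 5, and 2 (DESeq2) or 1 (edgeR) were lower with the block. For signalling genes edgeR, limma-voom and padj under 0.01 called 0 higher in place of 1, both blocked fits called 2, and leaving out a sample gave 0 (without Control sample 1 or 2 or BRG1 sample 1 or 2) to 2 (without BRG1 sample 3). For MAP kinase output genes edgeR, limma-voom and padj under 0.01 called 1 in place of 3, blocked DESeq2 6, and leaving out a sample gave 1 (without BRG1 sample 1 or 2) to 4. The cause of these shifts was not tested. Beyond the calls given here and in the results, the replicate block added CD68 among leukocyte markers and dropped PKP1 among keratinocyte genes, and in DESeq2 it changed no other call among the members and lists.

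Fold changes that were not called changed sign in some alternatives. The Log2FoldChange of EPGN was 0.20 with the block against -0.14 without it. Leaving out a sample gave -1.14 to 0.31 for EPGN, -0.15 to 0.19 for ERBB3, -0.77 to 0.28 for AREG, -0.65 to 0.30 for EREG, -0.062 to 0.38 for BTC and -0.31 to 0.039 for NRG1 in fits without the block. For AREG the blocked interval lay below 0, as the results give, although padj missed the threshold. With the length of all exons merged, ERBB2 held 95.3% in place of 95.8% of the sum of EGFR, ERBB2 and ERBB3 in Control. With ERBB4 in the sum, an alternative chosen after seeing the data, ERBB2 held 78.0% in Control and 81.3% in BRG1 samples and ERBB3 2.81% and 2.54%. The order of per-length levels in BRG1 samples kept 6 to 10 of 10 genes in place, with 6 when BRG1 sample 1 was left out. In Control samples it kept 8 to 10, with 8 when Control sample 1 was left out or merged exons gave the length. With merged exons NRG1 (569 per kilobase) stood just above ERBB2 (568) in Control. Without the block the intervals of AREG and EREG allow changes of more than 2-fold in either direction, and with it their fold intervals were 0.736 to 0.967 and 0.733 to 1.04. EPGN lies near the counting floor.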
